A study of Mus musculus with 2 samples.

Results

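The genes described here are Cdkn1a, 6 further targets of the transcription factor p53 (Mdm2, Ccng1, Bax, Zmat3, Trp53inp1 and Phlda3) and the 3 GADD45 genes (Gadd45a, which is a p53 target too, Gadd45b and Gadd45g). They were chosen by symbol, 10 of 24421 genes in the count tables, because Cdkn1a differed between the libraries, to ask whether that difference came with other p53 targets. The sequenced RNA came from livers of male C57BL/6 mice that started a high-fat diet (HFD) at 6 weeks of age and stayed on it for 12 weeks. One library was labelled liver-specific knockout (LKO), with genotype RORα f/f:Alb-Cre, in which Cre driven by the albumin promoter was to remove a floxed part of Rora in hepatocytes. The other was the control with genotype RORα f/f, which carries the same floxed alleles without Cre. Both groups were on the high-fat diet, and the labels do not say whether RNA of several mice was pooled for a library.

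p53 is a transcription factor that is stabilised by DNA damage and other stress and activates genes for cell cycle arrest, repair and cell death. Its best known target, Cdkn1a, encodes p21, which binds cyclin-dependent kinases (CDKs) and stops the cell cycle. Cdkn1a is also switched on without p53, and in mouse liver it is known as a clock-controlled gene on which REV-ERB repressors and ROR activators act. GADD45 proteins are small acidic stress sensors that bind PCNA, CDK1 and the kinase MAP3K4. Gadd45a is a p53 target, Gadd45b answers NF-κB and TGF-β, and Gadd45g was found as a cytokine response gene.

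RefSeq gives promoter windows for 8 of the 10 genes, 9 windows in all, as Cdkn1a has 2 annotated starts that lie 2790 bases apart. The 250 bases before each start were searched on both strands for the p53 consensus decamer, for a pair of such decamers with 0 to 13 bases between them and at most 1 mismatch over the pair, and for the GC box GGGCGG, the CCAAT box, the TATA box written as TATAAA, the E-box CACGTG, the ROR and REV-ERB core AGGTCA and the cAMP response core TGACG. The 3 genes with a decamer pair are shown first, then the 2 GADD45 genes that differed by 1.5-fold. Capitals mark any match, and each window runs 5′ to 3′ on the gene's strand. Where the start of the GENCODE gene falls inside a window, the bases within the gene are left out. The window of the downstream Cdkn1a start lies wholly within the gene and is printed in full. The sequences are credited to RefSeq (GRCm38.p6).
Cdkn1a upstream start, chr17:29090729-29090975, plus strand: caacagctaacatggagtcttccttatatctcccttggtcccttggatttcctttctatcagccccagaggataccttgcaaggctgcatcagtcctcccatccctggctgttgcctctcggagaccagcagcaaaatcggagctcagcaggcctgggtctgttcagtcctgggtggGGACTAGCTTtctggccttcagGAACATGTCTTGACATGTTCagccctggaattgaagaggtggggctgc
Cdkn1a downstream start, chr17:29093519-29093768, plus strand: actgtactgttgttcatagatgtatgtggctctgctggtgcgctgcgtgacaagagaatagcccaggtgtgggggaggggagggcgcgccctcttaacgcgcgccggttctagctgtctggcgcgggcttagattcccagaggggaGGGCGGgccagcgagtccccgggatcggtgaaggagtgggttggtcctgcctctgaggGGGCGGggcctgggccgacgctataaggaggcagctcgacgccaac
Ccng1, chr11:40755312-40755536, minus strand: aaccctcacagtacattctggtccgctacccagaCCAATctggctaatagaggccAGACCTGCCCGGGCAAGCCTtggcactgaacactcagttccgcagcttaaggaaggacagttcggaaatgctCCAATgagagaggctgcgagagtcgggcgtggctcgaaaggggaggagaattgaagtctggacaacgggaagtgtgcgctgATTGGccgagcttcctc
Bax, chr7:45466899-45467148, minus strand: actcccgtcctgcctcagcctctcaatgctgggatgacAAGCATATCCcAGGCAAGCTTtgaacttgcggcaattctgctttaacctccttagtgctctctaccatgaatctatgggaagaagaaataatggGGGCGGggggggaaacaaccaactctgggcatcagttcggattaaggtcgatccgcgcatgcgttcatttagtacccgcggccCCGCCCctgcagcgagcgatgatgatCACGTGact
Gadd45a, chr6:67037458-67037657, minus strand: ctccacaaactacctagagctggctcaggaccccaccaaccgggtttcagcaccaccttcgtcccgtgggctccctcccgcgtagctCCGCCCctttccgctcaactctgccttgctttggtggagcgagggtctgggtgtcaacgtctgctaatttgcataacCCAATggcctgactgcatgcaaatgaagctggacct
Gadd45g, chr13:51846425-51846674, plus strand: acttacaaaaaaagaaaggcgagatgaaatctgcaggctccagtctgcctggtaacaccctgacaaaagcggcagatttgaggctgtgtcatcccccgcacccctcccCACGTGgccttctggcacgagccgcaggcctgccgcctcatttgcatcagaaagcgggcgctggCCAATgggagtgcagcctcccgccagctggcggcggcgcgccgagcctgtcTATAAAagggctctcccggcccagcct

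The decamer pair stood in 3 of the 9 windows and in 0.898% of 32851 RefSeq windows of the same length. At the upstream start of Cdkn1a it ran from base -51 to -32 with no spacer and 1 mismatch, and 2 perfect decamers lay at -73 to -64 and -51 to -42, with 12 bases between them. Ccng1 held a pair at -195 to -176 and Bax at -212 to -192, each with 1 mismatch. A single decamer was found in 5 of the 8 genes (Cdkn1a, Mdm2, Ccng1, Bax and Gadd45a) and in 7.13% of all windows. The match in Gadd45a, at -40 to -31, lies in bases not printed. These 7 motifs can overlap and were each counted on their own.

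Of the other motifs, GGGCGG was in 6 of the 8 genes (32.7% of all windows) and CCAAT in 5 (33.8%). TATAAA stood in Gadd45b and Gadd45g (12.4%), and CACGTG in Bax, Gadd45b and Gadd45g (6.02%). AGGTCA and the cAMP response core were in 0 of the 9 windows, against 14% and 17.8% of all windows. These are matches of letters within the windows only.

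Total counts were 131843686 in the LKO-labelled library and 128201591 in the control library. Levels are CPM, read counts relative to library size, scaled by trimmed mean of M-values (TMM) factors, and each ratio is the CPM in the LKO-labelled library over that in the control library. Intervals are 95% exact intervals for counting error alone, because 1 library per genotype leaves no replicate check and no test. A gene counted as measured from a mean of 1 CPM and a summed count of 20, which 11137 genes reached. Among them 10.5% were at least 1.5-fold higher and 9.76% at least 1.5-fold lower in the LKO-labelled library, each with an interval that excluded 1. Scaling by total count, which adds 0.42 to every log2 ratio, gave 34.6% and 2.53% instead. Rora itself, the targeted gene, stood at 24.1 CPM in the LKO-labelled library and 33.4 CPM in the control library. That total includes exons outside the floxed part and its log2 ratio of -0.47 was -0.05 with total count scaling, so it checks the label only in part.

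Cdkn1a was 3.36-fold higher in the LKO-labelled library, and of the 6 other p53 targets measured among the 10 genes 1, Gadd45a, was higher by 1.5-fold or more, at 1.55-fold. The other 5 lay within 1.5-fold, though Ccng1 and Trp53inp1 were past it with total count scaling. Of the 10 genes, 8 were measured, and 2 of these, Cdkn1a and Gadd45a, were higher by 1.5-fold or more while 1, Gadd45g, was lower by as much. With total count scaling 4 of the 8 were 1.5-fold higher, beside 34.6% of all measured genes. As the group was chosen with the value of Cdkn1a known, these counts describe it and are no test. Phlda3 and Gadd45b were too low to be measured. These are bulk libraries, so fewer cells of a type and less RNA per cell cannot be told apart.

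**Figure D1:**
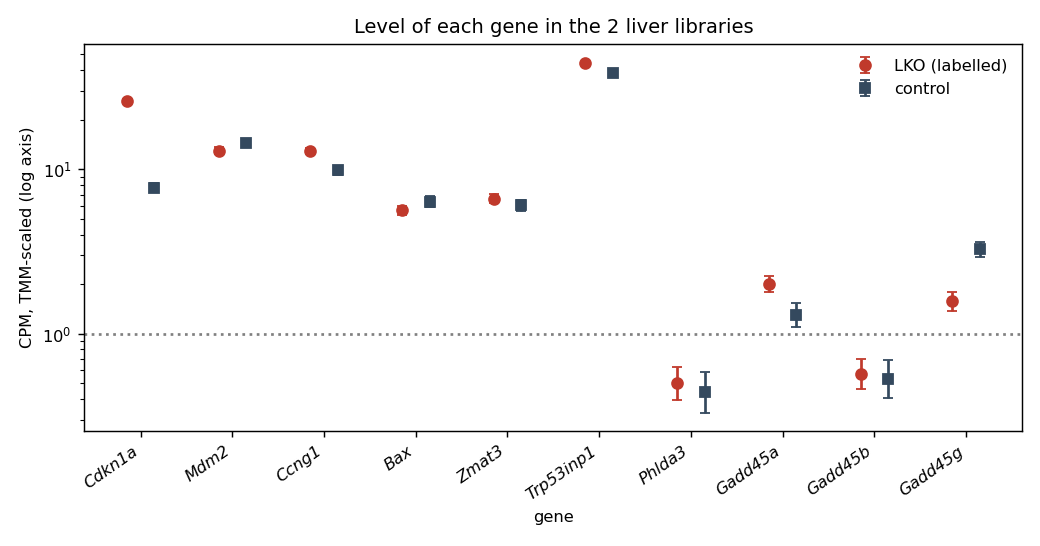
Level of the 10 genes in the LKO-labelled library (circles) and the control library (squares), as TMM-scaled CPM on a log axis, with 95% exact Poisson intervals that cover counting error only; the dotted line marks 1 CPM. Cdkn1a has the widest gap, 25.9 against 7.72 CPM, and Gadd45g lies lower in the LKO-labelled library, at 1.57 against 3.25 CPM.

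Cdkn1a (ENSMUSG00000023067.14, chromosome 17 from 29090976 to 29100727 on the plus strand, GENCODE M21 on GRCm38; each of the 10 genes is annotated as protein coding) had 3952 counts in the LKO-labelled library and 856 in the control library. After scaling this was 25.9 CPM (interval 25.1 to 26.7) in the LKO-labelled library and 7.72 CPM (interval 7.21 to 8.26) in the control library. The LKO-labelled library was thus 3.36-fold higher (interval 3.12 to 3.62), a log2 ratio of 1.75. Under total count scaling the log2 value was 2.17. Only 1.23% of measured genes had a higher ratio, which placed Cdkn1a at rank 138.

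RefSeq lists 2 curated transcripts for Cdkn1a, Mdm2, Trp53inp1 and Trp53. Both counts of Cdkn1a are even, whereas Mdm2 and Trp53 have an odd count in the control library and Trp53inp1 in the LKO-labelled library. Over the tables, even counts made up 66.8% in the LKO-labelled library and 68% in the control library for genes with 2 curated transcripts and 1 to 49 counts, against 50.8% and 54.3% for genes with 1. Whether reads were counted once per transcript was not tested. Counts divided by the number of transcripts leave the ratio as it is and widen its interval to 3.02 to 3.73. The tables hold 1 value per gene, so use of the upstream and the downstream start could not be read. The annotated gene AC167363.2 overlaps Cdkn1a on the other strand and was not analysed here.

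The measured genes nearest to Cdkn1a in log2 ratio, among 5227 named genes with a mean of at least 10 CPM, were Klf10, Nrp2 and Tenm3 just above it and Cyp2a22, Tmem184a and Saa2 just below. Their ratios ran from 3.30 to 3.42. This likeness rests on 2 libraries. Klf10, a TGF-β-inducible repressor gene, had 43.2 CPM in the LKO-labelled library and 12.6 CPM in the control library.

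Genes that hold p53 in check stayed within 1.5-fold under the scaling used here. Mdm2, whose product marks p53 for degradation and which p53 itself induces, had 1976 counts (12.96 CPM) in the LKO-labelled library and 1591 counts (14.4 CPM) in the control library. Its ratio was 0.903 (interval 0.845 to 0.965). This log2 ratio of -0.15 turned to 0.27 with total count scaling. Ccng1 encodes cyclin G1, which helps to activate Mdm2. It had 1964 counts (12.9 CPM) in the LKO-labelled library and 1089 counts (9.82 CPM) in the control library, a ratio of 1.31 (interval 1.22 to 1.41). Total count scaling took its log2 ratio to 0.81, past 1.5-fold.

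Among effectors, Bax, which opens the outer mitochondrial membrane in apoptosis, had 856 counts (5.61 CPM) in the LKO-labelled library and 703 counts (6.34 CPM) in the control library. Its ratio was 0.885 (interval 0.800 to 0.979), and its log2 ratio of -0.18 turned to 0.24 with total count scaling. The gene model Gm45808, not analysed here, overlaps Bax on the same strand. Trp53inp1, a nuclear and autophagy stress protein gene, had 44.1 CPM in the LKO-labelled library and 38.3 CPM in the control library. That is a ratio of 1.15 (interval 1.11 to 1.19), and total count scaling took the log2 ratio to 0.62, past 1.5-fold. Zmat3, a zinc finger RNA-binding protein gene, had 6.60 CPM in the LKO-labelled library and 6.04 CPM in the control library, with a ratio of 1.09 (interval 0.991 to 1.21) that did not exclude 1. Phlda3, which restrains the kinase AKT, had 76 counts in the LKO-labelled library and 49 in the control library, a ratio of 1.13 (interval 0.777 to 1.65), so a difference was not detectable at this depth.

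These 5 measured p53 targets had log2 ratios from -0.18 to 0.39, and with Gadd45a, at 0.63, the 6 other than Cdkn1a had a median of 0.17, beside a median of -0.0032 over all measured genes. Comparing counts within each library takes the scaling out of the comparison. Cdkn1a had 2.0 counts for each count of Mdm2 in the LKO-labelled library and 0.538 in the control library, a 3.72-fold difference (interval 3.36 to 4.11). Against Bax the corresponding fold was 3.79 (interval 3.34 to 4.30), against Zmat3 3.07 (interval 2.71 to 3.47), against Trp53inp1 2.92 (interval 2.68 to 3.18) and against Ccng1 2.56 (interval 2.30 to 2.85). Against Phlda3 it was 2.98 (interval 2.02 to 4.35), and against Gadd45a 2.17 (interval 1.74 to 2.69). Cdkn1a was thus higher relative to each of these 7 genes in these libraries, whichever scaling is used. As the group was chosen because Cdkn1a differed, these folds describe the 2 libraries and are no test. Their intervals use the counts as deposited, not divided by the number of transcripts.

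**Figure D2:**
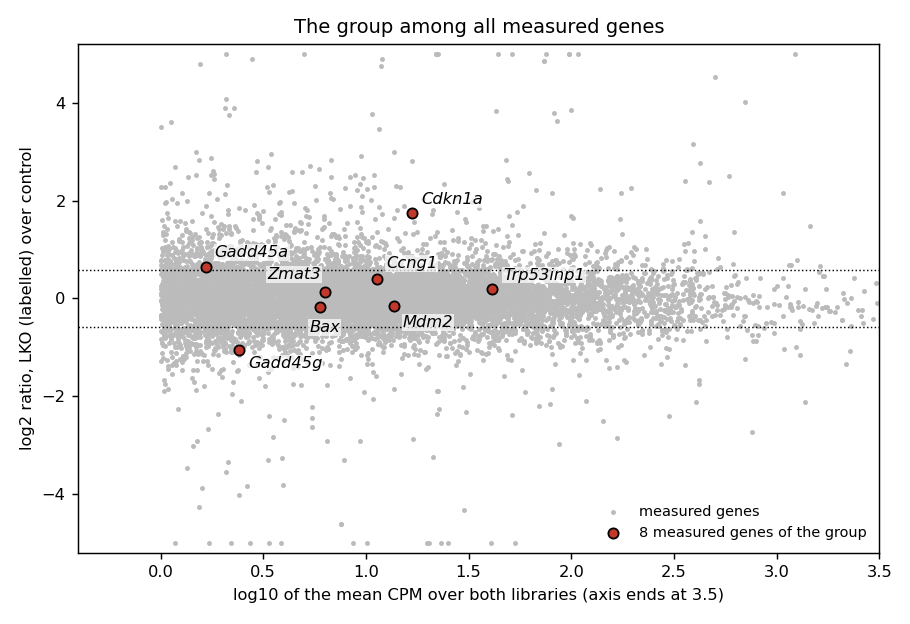
Log2 ratio, LKO-labelled library over control, against the log10 mean CPM for measured genes (grey; ratios beyond 5 are drawn at 5 and genes beyond 3.5 on the abundance axis are not drawn) with the 8 measured genes of the group in red; dotted lines mark 1.5-fold. Cdkn1a lies at 1.75, Gadd45a at 0.63 and Gadd45g at -1.05, and the other 5 lie between the dotted lines.

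The 3 GADD45 genes did not move together. Gadd45a (ENSMUSG00000036390.8, chromosome 6 from 67035096 to 67037457, minus strand) had 307 counts in the LKO-labelled library, or 2.01 CPM (interval 1.79 to 2.25), and 144 counts in the control library, or 1.30 CPM (interval 1.10 to 1.53). It was 1.55-fold higher (interval 1.27 to 1.90), just past the 1.5-fold used here and with an interval that reaches below it. The antisense gene E230016M11Rik overlaps Gadd45a and had 141 counts in the LKO-labelled library and 74 in the control library. As strand use is unknown the reads of the pair cannot be told apart.

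Gadd45g (ENSMUSG00000021453.2, chromosome 13 from 51846678 to 51848468, plus strand) had 239 counts in the LKO-labelled library, or 1.57 CPM (interval 1.37 to 1.78), and 360 counts in the control library, or 3.25 CPM (interval 2.92 to 3.60). It was 2.07-fold lower (interval 1.75 to 2.45), or -1.05 on the log2 scale and -0.63 under total count scaling. Only 2.34% of measured genes had a lower ratio. Gadd45b had 87 counts (0.571 CPM) in the LKO-labelled library and 59 counts (0.532 CPM) in the control library, and its ratio of 1.07 (interval 0.761 to 1.52) did not exclude 1.

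Within the 633 GADD45 counts of the LKO-labelled library, Gadd45a made up 48.5% and Gadd45g 37.8%. In the control library, with 563 such counts, Gadd45a made up 25.6% and Gadd45g 63.9%. Per kilobase of transcript, Gadd45a and Gadd45g stood at 1.65 and 1.46 CPM in the LKO-labelled library, with overlapping intervals, and at 1.06 and 3.03 CPM in the control library. Gadd45a relative to Gadd45g was 3.21-fold higher (interval 2.46 to 4.19) in the LKO-labelled library, a value free of the scaling. Gadd45a relative to Gadd45b was 1.45-fold (interval 0.963 to 2.16), which did not exclude 1.

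Levels of different genes are compared per kilobase of the longest GENCODE transcript. In the LKO-labelled library the order of CPM per kilobase began with Cdkn1a at 12.5, Trp53inp1 at 8.11, Bax at 5.10, Mdm2 at 4.12 and Ccng1 at 3.67. In the control library it began with Trp53inp1 at 7.05, Bax at 5.77, Mdm2 at 4.56, Cdkn1a at 3.71 and Gadd45g at 3.03. Per kilobase, Cdkn1a was thus at the top of the order in the LKO-labelled library and below Trp53inp1, Bax and Mdm2 in the control library. Whether counts rise with transcript length in these libraries was not tested. In CPM not divided by length, Trp53inp1 at 44.1 stood above Cdkn1a at 25.9 in the LKO-labelled library. In the control library Trp53inp1 at 38.3, Mdm2 at 14.4 and Ccng1 at 9.82 stood above Cdkn1a at 7.72, and Bax at 6.34 below it. With every gene's counts divided by its number of curated transcripts, the order in the LKO-labelled library began with Cdkn1a at 6.23, Bax at 5.10, Trp53inp1 at 4.05 and Ccng1 at 3.67 CPM per kilobase. In the control library Bax at 5.77, Trp53inp1 at 3.53, Gadd45g at 3.03, Ccng1 at 2.80 and Mdm2 at 2.28 then stood above Cdkn1a at 1.86. For the counts as deposited, neighbours in the order whose intervals overlapped were Gadd45a and Gadd45g in the LKO-labelled library, Gadd45g and Ccng1 in the control library, and Gadd45b and Phlda3 in both.

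**Figure D3:**
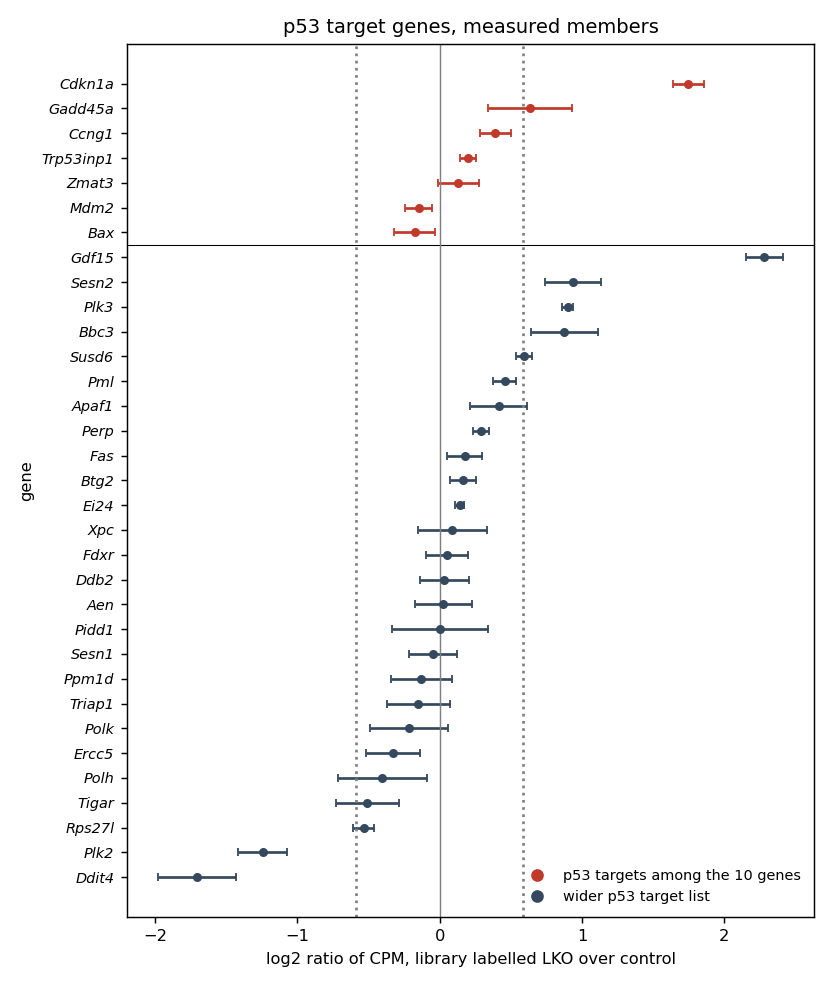
Log2 ratio of CPM, LKO-labelled library over control, for the 7 measured p53 targets of the group (red, above the line) and 26 measured genes of a wider p53 target list (blue), with 95% exact intervals for counting error and dotted lines at 1.5-fold. Cdkn1a at 1.75 and Gdf15 at 2.28 stand apart from the rest on the right, and Ddit4 at -1.70 and Plk2 at -1.24 on the left.

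A wider list held 32 p53 target genes. Of 26 measured genes, 5 (19.2%, against 10.5% of all measured genes) passed 1.5-fold upward in the LKO-labelled library and 2 (7.69%, against 9.76%) downward, and the median log2 ratio was 0.04. Gdf15, which encodes a stress hormone, had 24.2 CPM in the LKO-labelled library and 4.98 CPM in the control library, 4.86-fold higher (interval 4.44 to 5.33). The stress-induced sestrin gene Sesn2 was 1.91-fold higher, the polo-like kinase gene Plk3 1.86-fold, Bbc3, which encodes the death activator PUMA, 1.83-fold (interval 1.56 to 2.16), and Susd6 1.51-fold (interval 1.45 to 1.57). Gdf15 and Sesn2 are also known targets of the stress factor ATF4. Its own gene had 93.97 CPM in the LKO-labelled library and 116.7 CPM in the control library. That is a level of mRNA only, and a part of ATF4 in these differences was not tested.

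On the other side, Ddit4, an inhibitor of mTORC1 signalling, was 3.25-fold lower, with 1.06 CPM in the LKO-labelled library and 3.46 CPM in the control library. Plk2, another polo-like kinase gene, was 2.37-fold lower, with 2.90 CPM in the LKO-labelled library and 6.86 CPM in the control library. Rps27l was 1.45-fold lower and Ei24 1.10-fold higher. Among the measured DNA repair genes of the list, log2 ratios were 0.03 for Ddb2, 0.09 for Xpc, -0.22 for Polk, -0.33 for Ercc5 and -0.40 for Polh. The ratio of Ercc5 was 0.798 (interval 0.699 to 0.911) and that of Polh 0.757 (interval 0.610 to 0.938). Ppm1d, a phosphatase gene that acts back on p53, was at -0.13 on the log2 scale. With the 0.42 that total count scaling adds, the 4 negative values turn positive. With no filter on low counts 8 of 31 genes of the list were 1.5-fold higher, as Pmaip1, Eda2r and Rrm2b joined from 35, 86 and 92 counts in the LKO-labelled library and 11, 29 and 41 in the control library. Plk2 and Ddit4 remained the 2 that were lower.

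Trp53, which encodes p53, had 4608 counts (30.2 CPM) in the LKO-labelled library and 2427 counts (21.9 CPM) in the control library. It was 1.38-fold higher (interval 1.31 to 1.45), within 1.5-fold, and its log2 ratio of 0.46 was 0.88 with total count scaling. As p53 is controlled mainly through the stability of its protein, this value is a level of mRNA only. Of 19 measured genes among p53 and its regulators, 1 was at least 1.5-fold higher, the damage kinase gene Atr at 1.57-fold (interval 1.33 to 1.85), and 0 were lower (5.26% and 0%, against 10.5% and 9.76% of all measured genes). Mdm4, the partner of Mdm2, had 59.1 CPM in the LKO-labelled library and 59.0 CPM in the control library, and the p53 kinase gene Hipk2 was 1.47-fold higher.

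Of the 6 other CDK inhibitor genes only Cdkn1b, which encodes p27, was measured, with 4.64 CPM in the LKO-labelled library and 3.92 CPM in the control library, a ratio of 1.19 (interval 1.05 to 1.34). Cdkn2c, which encodes p18, had 172 counts in the LKO-labelled library and 58 in the control library. Cdkn2a, a senescence-linked gene, had 0 counts in both libraries, which allows up to 0.0197 CPM in the LKO-labelled library and 0.0271 CPM in the control library. Among 14 measured cyclin, CDK and pocket protein genes of G1 and S phase, 2 passed 1.5-fold upward and 1 downward (14.3% and 7.14%, against 10.5% and 9.76% of all measured genes). Cdk6 and the pocket protein gene Rbl1 were 2.64-fold and 2.59-fold higher, and the cyclin gene Ccne2 2.07-fold lower. Below the filter, E2f2 had 38 counts in the LKO-labelled library and 158 in the control library. Of 24 genes of S, G2 and M phase only 12 were measured, of which 0 were 1.5-fold higher and 1 lower, Kif20a at 1.90-fold. These are 0% and 8.33%, against the same shares of all measured genes. Their median log2 ratio was 0.42, beside -0.0032 over all measured genes. Of the 12 measured, 10 had a ratio above 1, with Mcm5 at 1.497 and Birc5 at 1.496 the highest, and 2 had a ratio below 1. Of the 12 genes below the filter, 8 had a ratio above 1. Among these Foxm1, a mitotic transcription factor gene, had 150 counts in the LKO-labelled library and 35 in the control library, a ratio of 3.12 (interval 2.14 to 4.64). The mitotic kinase gene Aurkb had 93 counts in the LKO-labelled library and 10 in the control library, and Cdc20 had 77 in the LKO-labelled library and 0 in the control library. Cdk1, with 95 counts in the LKO-labelled library and 136 in the control library, was among those with a ratio below 1.

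Of 11 measured GADD45 partners and stress kinases, 1 was at least 1.5-fold higher and 0 lower (9.09% and 0%, with the same shares of all measured genes beside them). Map2k7, which activates JNK and is a target of Gadd45b protein, was 1.64-fold higher (interval 1.59 to 1.69). Of the JNK genes, Mapk8 had a ratio of 0.669 (interval 0.596 to 0.750), just short of 1.5-fold lower. Mapk9 had a ratio of 1.08 (interval 1.06 to 1.11). Map3k4, which GADD45 proteins activate, had 6.13 CPM in the LKO-labelled library and 4.71 CPM in the control library, and the p38 gene Mapk14 had 216 CPM in the LKO-labelled library and 210 CPM in the control library. Of 19 measured genes for factors that can induce GADD45 genes and for other immediate stress factors, 6 (31.6%, against 10.5% of all measured genes) passed 1.5-fold upward and 2 (10.5%, against 9.76%) downward. Relb, 1 of the 6, was above 1 CPM only in the LKO-labelled library, at 1.47 CPM against 0.704 CPM in the control library. Jun and Egr1, both immediate early genes, were 5.03-fold (interval 4.68 to 5.40) and 4.07-fold higher, and Myc, a repressor of Cdkn1a and Gadd45a, 2.16-fold higher. Smad3 and Ddit3 were 1.71-fold and 1.68-fold lower.

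Among receptors that act on Cdkn1a in the liver clock, Nr1d1, which encodes the repressor REV-ERBα, had 9.82 CPM in the LKO-labelled library and 6.23 CPM in the control library, 1.57-fold higher (interval 1.44 to 1.73). Arntl, the clock activator gene that REV-ERB and ROR receptors control, was 1.95-fold lower.

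**Figure D4:**
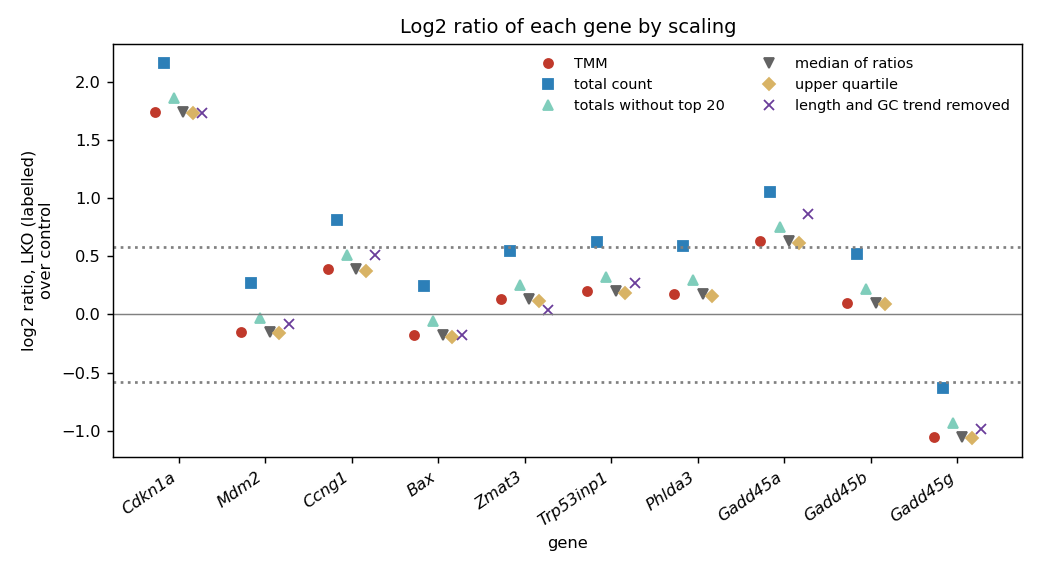
Log2 ratio, LKO-labelled library over control, of the 10 genes under 5 scalings and, for the 8 measured genes, with a trend over transcript length and GC removed, with dotted lines at 1.5-fold. Total count scaling (blue squares) lifts each gene by 0.42, and Cdkn1a, Gadd45a and Gadd45g keep their sign under each setting while Mdm2 and Bax turn positive under total count scaling.

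All 12 hepatocyte markers were measured and summed to 139388 CPM in the LKO-labelled library and 177798 CPM in the control library. Of them 1 passed 1.5-fold upward and 3 downward (8.33% and 25%, against 10.5% and 9.76% of all measured genes). Alb alone made up 91007 CPM (LKO-labelled) and 117952 CPM (control) of these sums. Tat was 2.24-fold, Serpina1c 1.64-fold and Cps1 1.63-fold lower, while Glul was 2.20-fold and Cyp2e1 1.45-fold higher. In all, 10 of the 12 had a ratio below 1 and 2 above, with a median log2 ratio of -0.37. Stellate cell and fibroblast markers summed to 314 CPM (LKO-labelled) and 224 CPM (control). Of these, 6 of 12 were 1.5-fold higher and 0 lower (50% and 0%, against the same shares of all measured genes). Kupffer cell markers summed to 107 CPM (LKO-labelled) and 171 CPM (control), where 7 of 9 measured were 1.5-fold lower (77.8%) and 0 higher (0%). Endothelial markers summed to 255 CPM (LKO-labelled) and 247 CPM (control), with 0 of 10 past 1.5-fold. Of 12 lymphocyte markers 1, Ptprc, was measured, at 5.46 CPM (LKO-labelled) and 6.22 CPM (control). With the 11 below the filter, the 12 summed to 8.33 CPM (LKO-labelled) and 11.1 CPM (control). Gzma was at 0 in the LKO-labelled library and Cd3d at 0 in the control library. Recruited macrophage and neutrophil markers summed to 49.4 CPM (LKO-labelled) and 59.5 CPM (control), with S100a8 at 0 in both libraries. Cholangiocyte markers summed to 91.8 CPM (LKO-labelled) and 102 CPM (control), with Cftr at 0 in both. Spp1, which is in both lists, made up 40.2 CPM (LKO-labelled) and 51.6 CPM (control) of each list's sums. Of 4 measured recruited macrophage and neutrophil markers 1, Gpnmb, was 1.5-fold higher and 0 lower (25% and 0%, against 10.5% and 9.76% of all measured genes). Gpnmb was above 1 CPM only in the LKO-labelled library, at 2.14 CPM against 0.541 CPM in the control library. Of 3 measured cholangiocyte markers, 0 were past 1.5-fold. The part of these cell types in the differences of Cdkn1a, Gadd45a and Gadd45g was not tested.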

How the data were processed

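Libraries were made from 500 ng of Trizol-extracted RNA with a LEXOGEN kit, per the labels' protocols. The authors deposited raw counts by gene symbol in a table for each library. TopHat, edgeR and build mm10 are named without versions or roles, per the submitters' processing notes. The counter, the annotation, strand use and the handling of multi-mapped reads: not given in the sources used here.

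From the counts, TMM factors (edgeR 4.0.16, R 4.3.3) of 1.16 for the LKO-labelled library and 0.865 for the control library gave CPM. Ratios carry 95% Clopper-Pearson intervals conditional on the summed count, and ratios of ratios exact conditional odds ratio intervals (scipy 1.17.1). As reads carry no molecular identifiers, intervals and floors (3 counts) reflect counting error only. No test was run. Simulated counts were used to test the calculation. Total counts of 128201591 and 131843686 limit precision mainly below 1 CPM. GENCODE M21 (GRCm38, which mm10 denotes too) held 23376 of the 24421 symbols; symbols were matched to it, and promoters to RefSeq.

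The 10 genes and all gene lists (17, of which 254 of 255 entries matched a symbol, 1 through an older one) were chosen with earlier results of these data known. Genes share lists: Bbc3 and Pmaip1, Pcna, Cdk1 and Ccnb1, and Spp1 among them. The text names Rora, Trp53, in each list up to 3 measured genes with the highest ratio, 3 with the lowest and 2 with the highest mean CPM, and the 3 genes on either side of Cdkn1a in log2 ratio. Susd6, Ddb2, Xpc, Polk, Ercc5, Polh, E2f2, Foxm1, Aurkb, Cdc20, Cdk1, Ppm1d, Pmaip1, Eda2r, Rrm2b, Relb, Cdkn2c, Cdkn2a and markers at 0 were named after their values were seen. Alternatives were other scalings (total count, DESeq2 1.42.0 median of ratios, totals that leave out the 20 most abundant genes, upper quartile), added counts of 0.5 and 5, removal of a length and GC trend by lowess (fraction 0.3, 10735 genes), a higher and a lower fold, no interval criterion, no filter, and a mean of at least 5 CPM. Counts divided by transcripts, for an interval, were chosen after seeing the data.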

Additional observations from a re-analysis of the deposited data

How the results depend on the processing

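The log2 ratio of Cdkn1a stayed between 1.73 and 2.17 under 7 alternatives, with 2.17 under total count scaling and 1.87 with totals that leave out the 20 most abundant genes. Gadd45a ran from 0.61 to 1.05 and Gadd45g from -1.06 to -0.63, while Mdm2 (-0.16 to 0.27) and Bax (-0.19 to 0.24) changed sign under total count scaling. The median log2 ratio of the p53 targets among the 10 genes, Cdkn1a and Gadd45a included, was 0.20, and 0.62 with total count scaling and 0.32 without the 20 most abundant genes. For the wider p53 list it was 0.04, 0.46 and 0.16, and for all measured genes -0.0032, 0.42 and 0.12. Under total count scaling 4 of the 10 genes were 1.5-fold higher (Cdkn1a, Gadd45a, Ccng1 and Trp53inp1) and 1 lower (Gadd45g). Of the wider list 9 were higher and 2 lower, beside 3866 higher and 282 lower genes in all. Without the 20 most abundant genes the split over all genes was 1703 to 741, against 1169 to 1087 in the values reported. At a fold of 2, 1 of the 10 genes was higher (Cdkn1a) and 1 lower (Gadd45g). Of the wider list 1 was higher (Gdf15) and 2 lower (Plk2 and Ddit4), with 426 higher and 292 lower among the 11137 measured genes. At the lower fold tried, 3 of the 10 genes were higher, as Ccng1 joined, and 1 was lower, while 7 genes of the wider list were higher and 6 lower, with 2535 higher and 2516 lower in all. With no filter 8 of 31 genes of the wider list were higher and 2 lower, with 2389 and 2111 in all. At a mean of at least 5 CPM, 6 of the 10 genes were left, without Gadd45a and Gadd45g, and 1 was higher and 0 lower. Of 10 genes left of the wider list 3 were higher and 0 lower, and 628 and 631 genes in all. Shares of all genes are not given for the settings with no filter and with 5 CPM. No paired analysis was possible because each genotype has 1 library, which also leaves no library to leave out. Depth limits Phlda3 and Gadd45b, below 1 CPM in both libraries.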

Other observations

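Further gene groups around p53 are given as values. Of 13 measured genes of the BCL2 family, 1 was at least 1.5-fold higher in the LKO-labelled library (Bbc3) and 1 lower (7.69% each, against 10.5% and 9.76% of all measured genes). The one that was lower, Bcl2, a survival gene, had 0.675 CPM in the LKO-labelled library and 1.86 CPM in the control library, 2.75-fold lower (interval 2.16 to 3.52). Bcl2 was above 1 CPM in the control library only, so it passed the filter through the library in which it is high. Bnip3, a mitophagy receptor gene, had 206 CPM in the LKO-labelled library and 149 CPM in the control library. Of 17 measured DNA repair genes, 2 were higher, Mre11a at 1.65-fold (interval 1.36 to 2.01) and the excision repair gene Xpa at 1.62-fold, and 1 was lower, the end-joining ligase gene Lig4 at 1.75-fold (11.8% and 5.88% of the 17, near the shares of all measured genes). Lig4 too was above 1 CPM only in the control library, at 1.34 CPM against 0.767 CPM in the LKO-labelled library. H2afx, whose product is phosphorylated at DNA breaks, had 5.55 CPM in the LKO-labelled library and 8.33 CPM in the control library.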
